A study of Oryctolagus cuniculus with 9 samples.

Results

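The 10 genes described here encode the secreted vascular endothelial growth factors VEGFA, VEGFB, VEGFC and VEGFD, the platelet-derived growth factors PDGFA, PDGFB, PDGFC and PDGFD, and the receptors PDGFRA and PDGFRB. They were taken by symbol from the deposited gene counts. All 10 were among the 28788 gene rows, and all 10 passed the filter on low counts that left 17102 genes. The libraries came from rabbit urethral tissue, in work on a hydrogel stent for urethral repair. Polyadenylated RNA was sequenced from 9 libraries, whose titles carry the codes S9, S7 and S6 with 3 libraries each. The labels give no treatment, time, genotype, age or animal for a code and name no control, so a difference is one between codes, and p-values measure only the spread between these libraries. A library is called by its title, such as S9_1.

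VEGF ligands act mainly on endothelial cells. VEGFA drives the growth and leakiness of blood vessels through the receptors FLT1 and KDR and is induced by low oxygen, VEGFB binds FLT1, and VEGFC and VEGFD act through FLT4 on lymphatic vessels. PDGF ligands act on mesenchymal cells. PDGFA signals through PDGFRA, a receptor of fibroblasts and interstitial cells, PDGFB recruits pericytes and smooth muscle cells through PDGFRB, and PDGFC and PDGFD are secreted as latent proteins that proteases such as PLAT and PLAU activate.

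Each library held 35127085 to 36832773 counts, and counts of the 10 genes ran from 89 for VEGFD in S6_3 to 9624 for PDGFRB in S9_1. The count of 89 has an exact 95% Poisson interval of 71.5 to 110, which covers counting error only. The share of counts on genes of the mitochondrial genome was 0.243% to 0.419% in S9_4, S7_3 and S6_4 and 0.910% to 1.52% in the other 6 libraries, 2 from each group, and calls are also given in these mitochondria-rich 6. They were picked by the level of the mitochondrial gene ATP6, at 1946 to 3258 CPM (library-size-scaled counts, with TMM factors) in the 6 and 21.5 to 25.9 CPM in S9_4, S7_3 and S6_4. The cause of this sharp split was not tested. Markers of the labelled tissue were present. Of 12 epithelial markers 11 had a row, with a summed level of 2627 to 5738 CPM in S9, 4485 to 6036 CPM in S7 and 3817 to 5274 CPM in S6. The urothelial uroplakins UPK1B, UPK2 and UPK3A stayed at or below 22.4 CPM in each library.

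Between genes, levels can be compared only per length, for which the deposited FPKM (fragments scaled by gene length and library size) was used. VEGFB had the highest FPKM of the 10 genes in all 9 libraries, between 48.6 and 86.3 FPKM. Next came PDGFRB at 25.9 to 47.2 FPKM, PDGFRA at 28.1 to 45.8 FPKM and VEGFA at 19.5 to 52.0 FPKM, whose ranges overlapped. PDGFD, PDGFC and VEGFC ranged from 6.64 to 18.6 FPKM together. PDGFA had the widest span of rank, at 25.2 to 30.8 FPKM in S9, 12.1 to 26.3 FPKM in S7 and 6.92 to 10.7 FPKM in S6. It lay above these 3 genes in all S9 libraries, in S7_2, S7_4 and S6_4, among them in S7_3 and S6_2, and below them in S6_3. PDGFB was ninth in every library, at 3.77 to 10.2 FPKM. VEGFD was last in every library, at 0.131 to 0.577 FPKM, and the gene length behind its FPKM was 19377 bases, against a median of 3107 bases over the genes tested. PDGFD also had a long model of 11989 bases, which lowers its FPKM in the same way.

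**Figure D1:**
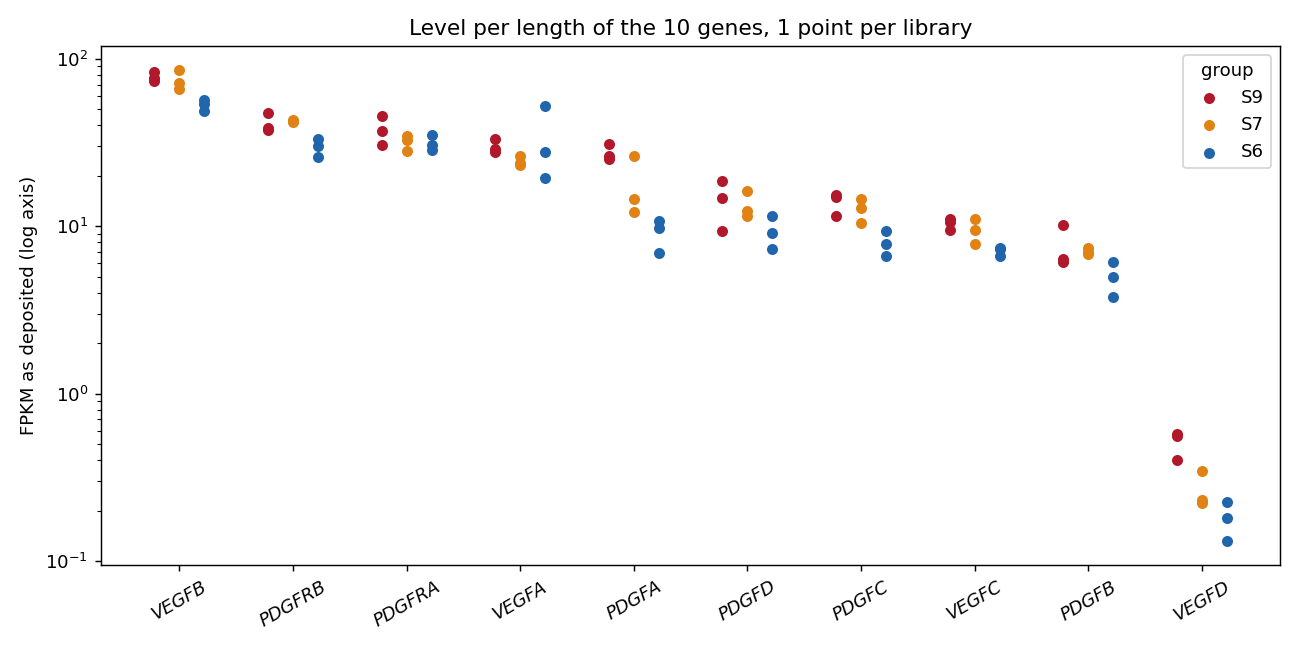
Level per length of the 10 genes, with the deposited FPKM on a log axis and 1 point per library, coloured by group. VEGFB is at the top in each library, the 2 receptors and VEGFA lie near 30 FPKM, and VEGFD lies below 0.6 FPKM.

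VEGFA, the main angiogenic ligand, was the only one of the 10 genes with its highest group mean in S6, and 1 library set that mean. It stood at 101, 87.6 and 86.7 CPM in S9_1, S9_2 and S9_4, at 73.0, 79.9 and 82.4 CPM in S7_2, S7_3 and S7_4, and at 162, 65.2 and 84.7 CPM in S6_2, S6_3 and S6_4. The S6 libraries thus held both the highest and the lowest level, and they overlapped with both other groups. The log2 fold change was -0.18 for S9 against S6 (SE 0.29, 95% interval -0.84 to 0.47, edgeR adjusted p = 0.712) and -0.41 for S7 against S6 (SE 0.29, interval -1.06 to 0.25, edgeR adjusted p = 0.530). Without S6_2 it was 0.29 for S9 against S6 and 0.07 for S7 against S6, so its direction rested on that library. The S9 libraries all lay above the S7 libraries, at a log2 fold change of 0.22 with an interval of -0.43 to 0.88.

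The library with the peak of VEGFA also held the peak of other genes that low oxygen induces. Of 15 hypoxia genes, 6 had their highest level in S6_2, while 11.6% of all genes tested had it there. These were EGLN3, ADM, NDRG1, SLC2A1, PDK1 and ANKRD37. EGLN3, an oxygen-sensing prolyl hydroxylase, was at 208 CPM in S6_2 and at 38.2 to 89.4 CPM in the other 8 libraries. SLC2A1, a glucose transporter, was at 101 CPM in S6_2 and at 29.0 to 76.1 CPM elsewhere. HIF1A, the oxygen-regulated transcription factor itself, was highest in S6_3, at 229 CPM, where VEGFA was lowest. This look at single libraries followed from the VEGFA values and carries no test.

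VEGFB, a ligand of FLT1 abundant in muscle and fat, was at 101, 114 and 94.9 CPM in S9, at 118, 95.3 and 96.9 CPM in S7, and at 71.9, 81.7 and 64.5 CPM in S6. All S9 and all S7 libraries lay above the highest S6 library, and S9 and S7 overlapped. The log2 fold change was 0.50 for S9 against S6 (SE 0.15, 95% interval 0.17 to 0.83), which did not pass in edgeR (adjusted p = 0.0540). For S7 against S6 it was 0.51 (SE 0.15, edgeR adjusted p = 0.143), and for S9 against S7 it was -0.0045 with an interval of -0.33 to 0.32.

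VEGFC, the chief lymphatic growth factor, followed the same layout at a lower level. It was at 22.5, 20.2 and 21.4 CPM in S9, at 23.5, 17.8 and 19.96 CPM in S7, and at 15.3, 16.7 and 13.8 CPM in S6. Again both S9 and S7 lay above S6 without overlap, at 0.48 on the log2 scale for S9 against S6 (SE 0.16, edgeR adjusted p = 0.0796) and 0.42 for S7 against S6 (SE 0.16, edgeR adjusted p = 0.234). Neither passed the test in edgeR.

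VEGFD, the second lymphatic ligand, rose in S9 against S6. It was at 10.7, 10.8 and 7.39 CPM in S9, at 6.74, 4.59 and 4.44 CPM in S7, and at 4.31, 2.69 and 3.40 CPM in S6. The 3 groups were ordered without overlap, S9 above S7 and S7 above S6. The log2 fold change for S9 against S6 was 1.47, a 2.78-fold difference (SE 0.31, 95% interval 0.78 to 2.17, edgeR adjusted p = 0.0252). The S7 group lay between the others, at 0.60 above S6 (SE 0.30, edgeR adjusted p = 0.354) and 0.88 below S9 on the log2 scale (SE 0.30, edgeR adjusted p = 0.538). The S9 against S6 call was lost without S6_3 (1.34, edgeR adjusted p = 0.0550), S6_4 (1.47, 0.0765), S9_1 (1.40, 0.0988) or S9_2 (1.39, 0.0912), and in the mitochondria-rich 6 (1.62, 0.0916). Over the 16 alternatives the log2 fold change stayed between 1.07, under the gene length correction, and 1.66, and the adjusted p ran from 8.3e-05 to 0.0988.

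PDGFA, the PDGFRA ligand, had the largest log2 fold change of the 10 genes in S9 against S6. It was at 60.9, 52.0 and 51.6 CPM in S9, at 54.4, 26.4 and 29.7 CPM in S7, and at 19.9, 15.1 and 21.4 CPM in S6. S9 and S7 each lay above all of S6, while the S7 library S7_2 reached into the S9 range and the other 2 S7 libraries did not. PDGFA averaged 54.8 ± 5.23 CPM in S9 and 18.8 ± 3.28 CPM in S6 (SD, n = 3 each), 2.91-fold or 1.54 on the log2 scale (SE 0.28, 95% interval 0.92 to 2.17, edgeR adjusted p = 0.0198). It averaged 36.9 ± 15.3 CPM in S7, where the log2 fold change against S6 was 0.97 (SE 0.27, interval 0.35 to 1.59, edgeR adjusted p = 0.141). For S7 against S6 this was 0.58 without S7_2. The S9 against S6 call was lost without S6_4 (1.66, edgeR adjusted p = 0.0614), S9_1 (1.47, 0.0909) or S9_2 (1.58, 0.0767), and in the mitochondria-rich 6 (1.69, 0.0671). Over the 16 alternatives its log2 fold change lay between 1.29 and 1.71, with an adjusted p from 1.8e-05 to 0.0909.

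PDGFC, a latent PDGFRA ligand, was the third member to rise in S9 against S6. It was at 46.3, 37.3 and 47.0 CPM in S9, at 46.8, 44.1 and 33.3 CPM in S7, and at 24.9, 31.9 and 20.9 CPM in S6. S9 and S7 overlapped widely with each other and lay above all of S6. The log2 fold change was 0.75 for S9 against S6 (SE 0.20, 95% interval 0.29 to 1.21, edgeR adjusted p = 0.0441) and 0.68 for S7 against S6 (SE 0.20, interval 0.22 to 1.13, edgeR adjusted p = 0.150). This call lay at the threshold. It was kept when S6_3 was left out (0.94, adjusted p = 0.0386) and lost when any other single library was, S7 libraries included, with a log2 fold change of 0.63 without S6_4, 0.85 without S9_2 and values between these for the others. In the mitochondria-rich 6 it was 0.56 (adjusted p = 0.240, over all alternatives 0.00787 to 0.240).

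PDGFB and PDGFD, the ligands with affinity for PDGFRB, did not pass the test in any comparison. PDGFB was at 35.6, 23.3 and 21.2 CPM in S9, at 26.8, 27.0 and 24.6 CPM in S7, and at 22.02, 14.6 and 17.5 CPM in S6. S9_1 stood above all other libraries, S9_4 fell within the S6 range, and S7 lay above S6 without overlap. The log2 fold change of PDGFB was 0.57 for S9 against S6 (SE 0.23, edgeR adjusted p = 0.132) and 0.54 for S7 against S6 (SE 0.23, edgeR adjusted p = 0.280). PDGFD was at 171, 113 and 212 CPM in S9, at 196, 158 and 137 CPM in S7, and at 136, 93.4 and 106 CPM in S6. Its S9 libraries spread over a wide range that reached into S6, and its log2 fold change was 0.56 for S9 against S6 (SE 0.25, edgeR adjusted p = 0.164) and 0.55 for S7 against S6 (SE 0.25, edgeR adjusted p = 0.307).

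The receptors differed from each other in layout. PDGFRA was at 251, 211 and 166 CPM in S9, at 197, 197 and 159 CPM in S7, and at 171, 212 and 158 CPM in S6. The 3 groups overlapped, and the log2 fold change was 0.21 for S9 against S6 (SE 0.19, 95% interval -0.22 to 0.65, edgeR adjusted p = 0.483) and 0.03 for S7 against S6 (SE 0.19, interval -0.40 to 0.46, edgeR adjusted p = 0.958). PDGFRB was at 255, 210.3 and 205 CPM in S9, at 239.7, 257 and 235 CPM in S7, and at 167, 198 and 142 CPM in S6. Both S9 and S7 lay above S6, at log2 fold changes of 0.40 (SE 0.16, edgeR adjusted p = 0.125) and 0.53 (SE 0.16, edgeR adjusted p = 0.154), and neither passed the test.

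**Figure D2:**
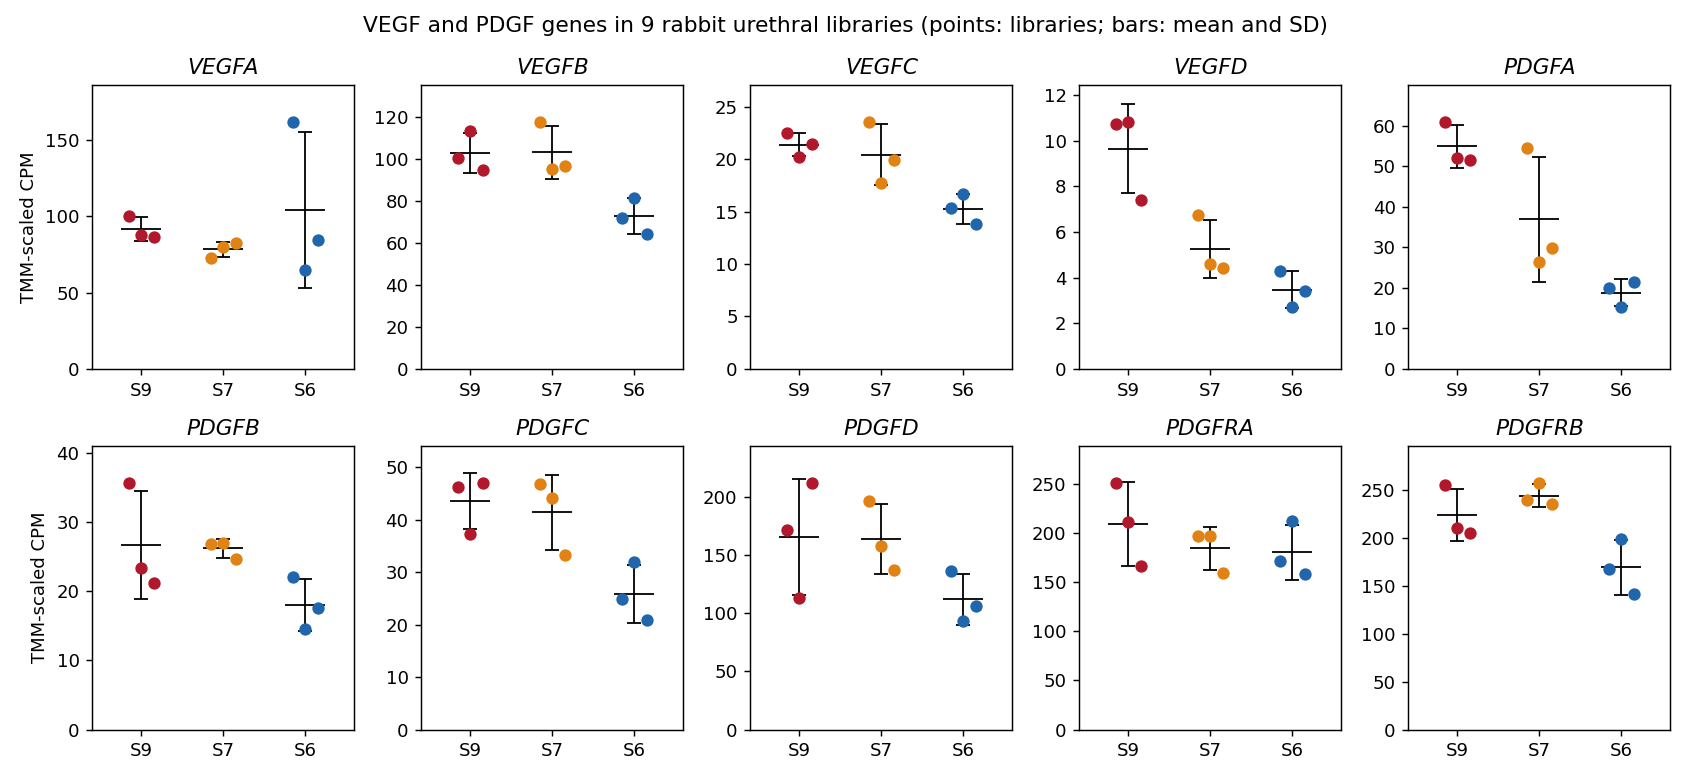
TMM-scaled CPM of the 10 genes, 1 panel per gene with the axis from 0, points for libraries and black bars for the mean and SD of 3 libraries. PDGFA and VEGFD lie highest in S9 and lowest in S6, VEGFA has a single S6 library at 162 CPM, and PDGFRA overlaps in all 3 groups.

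Set side by side, 9 of the 10 genes had a positive log2 fold change in S9 against S6 and 9 in S7 against S6, VEGFA being the exception in both, while 49.3% and 48.9% of all genes tested were positive. These comparisons share the S6 libraries, so their likeness is in part built in. In S9 against S6 edgeR called 3 of 10 as higher and 0 as lower, where 12.4% of all genes were called, 6.02% as higher and 6.34% as lower. At an unadjusted p below 0.05 it had 7 of 10, all higher, beside 31.2% of all genes, 15.4% as higher. The median log2 fold change of the 10 genes was 0.53, and that of all genes was -0.01. For 6 of the 10 the S9 libraries lay wholly above the S6 libraries, which held for 18.6% of all genes, and for 0 did they lie wholly below, which held for 17% of all genes (35.5% either way).

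In S7 against S6 the median was 0.53 as well, against -0.01 over all genes. Here edgeR called 0 of 10, with 0.111% of all genes called, 0.0468% as higher and 0.0643% as lower, while 6 of 10 were higher at an unadjusted p below 0.05, as were 8.68% of all genes (17.1% in either direction). DESeq2 called 4 of the 10, PDGFA, PDGFC, VEGFB and PDGFRB, beside 1417 of all 17102 genes. For 8 of the 10 the S7 libraries lay wholly above S6, against 10.7% of all genes, and for 0 wholly below, against 10.4% (21.2% either way). The low number of calls in this comparison thus applied to all genes and not only to these 10.

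Between S9 and S7 edgeR called 0 of 10 and 0% of all genes, and DESeq2 also called 0 of the 10, beside 123 of all genes. Only VEGFD had an unadjusted p below 0.05, where 9.21% of all genes did, 4.15% as higher. Of the 10, 8 had a positive log2 fold change, beside 50.1% of all genes. The median log2 fold change was 0.07, against 0.00052 for all genes, and 2 of 10, VEGFD and VEGFA, had S9 libraries wholly above S7, against 8.36% of all genes, and 0 lay wholly below, against 8.81% (17.2% either way). The F test over the 3 groups together called 0 of the 10 in edgeR, with 2.43% of all genes called, and PDGFA was nearest at an adjusted p of 0.0501. At an unadjusted p below 0.05 it had 6 of the 10, beside 4295 of all 17102 genes. DESeq2 called 5 of the 10 over the 3 groups, beside 3295 of all genes.

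**Figure D3:**
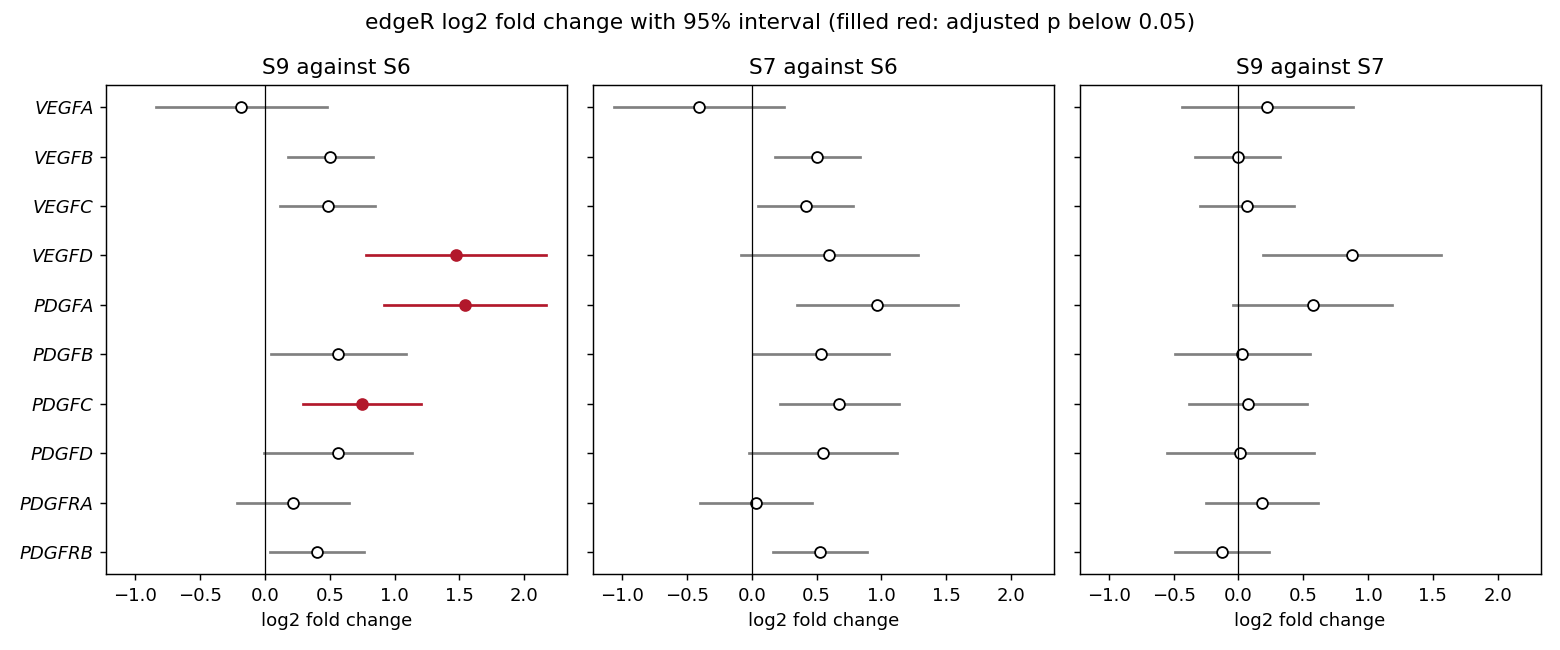
Log2 fold change of the 10 genes with 95% interval in each comparison, from edgeR with all 9 libraries. Filled red points mark the 3 calls, VEGFD at 1.47, PDGFA at 1.54 and PDGFC at 0.75 in S9 against S6, and the S9 against S7 values lie near 0 apart from VEGFD and PDGFA.

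Relative amounts within a library do not depend on the scaling between libraries. The FPKM ratio of PDGFA to its receptor PDGFRA was 0.672, 0.683 and 0.861 in S9, 0.766, 0.371 and 0.517 in S7, and 0.321, 0.198 and 0.376 in S6. Each S9 library thus had more PDGFA relative to PDGFRA than each S6 library, and S7_3 was level with S6_4. The FPKM ratio of PDGFB to PDGFRB, the pair of the pericyte axis, was 0.216, 0.171 and 0.160 in S9, 0.173, 0.162 and 0.162 in S7, and 0.203, 0.114 and 0.191 in S6, so all groups overlapped. The FPKM ratio of PDGFRB to PDGFRA was 1.03, 1.01 and 1.26 in S9, 1.24, 1.32 and 1.499 in S7, and 0.993, 0.951 and 0.910 in S6. By FPKM it was above 1 in all S9 and S7 libraries and below 1 in all S6 libraries, by a small margin in S9_2 and S6_2. The side of 1 depends on the gene lengths used, 5609 bases for PDGFRB and 5690 bases for PDGFRA. By counts, S9_2 held 7680 for PDGFRB and 7695 for PDGFRA, which puts its ratio below 1. These ratios were formed after the values were seen and were not tested.

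Most markers of vessel walls and muscle were also higher in S9 than in S6. All 12 smooth muscle markers had a row and none was at 0 in all libraries. Their summed level was 7575 to 14600 CPM in S9, 4048 to 12690 CPM in S7 and 2388 to 4150 CPM in S6, and 8 of 12 were called higher in S9 than in S6. All 9 pericyte and mural markers had a row, with sums of 1341 to 2018 CPM in S9, 893.7 to 1838 CPM in S7 and 609.7 to 773.8 CPM in S6, and 4 of 9, among them CSPG4 and RGS5, were called higher in S9. While 8 of 9 had a positive log2 fold change in S9 against S6, HIGD1B went the other way. It was at 1.16, 2.08 and 3.26 CPM in S9, and at 3.98, 6.30 and 4.21 CPM in S6. ABCC9 and COX4I2 overlapped between S9 and S6. ABCC9 was at 28.6 to 34.8 CPM in S9 and at 27.1 to 32.02 CPM in S6. COX4I2 was at 4.21 to 6.11 CPM in S9 and at 2.63 to 5.75 CPM in S6. RGS5 and MCAM made up most of the mural sum. They were at 1016 and 426 of 2018 CPM in S9_1, and at 338 and 141 of 773.8 CPM in S6_2. S7_2, the S7 library with the highest PDGFA, VEGFB, VEGFC, VEGFD, PDGFC and PDGFD, was also the S7 library with the highest sums of both lists. As a description over 9 libraries that include the group differences, Pearson's r of log2 level with the mural sum was 0.936 for PDGFA, 0.910 for VEGFD and 0.744 for PDGFC, the 3 called members. Among the others it was 0.926 for VEGFC, 0.889 for VEGFB, 0.735 for PDGFB, 0.673 for PDGFRB, 0.566 for PDGFD, 0.470 for PDGFRA and -0.065 for VEGFA. The value for VEGFA includes S6_2, where it stood apart at 162 CPM, and by rank its Spearman's rho was 0.317. In whole tissue, more cells of a type and more RNA per cell cannot be told apart, and the part of these cell types in the member differences was not tested.

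Immune markers ran the other way. Of 8 neutrophil markers 7 were tested and 6 were called lower in S9 than in S6, with sums of 436 to 762 CPM in S9, 2914 to 6522 CPM in S7 and 8317 to 15750 CPM in S6, and MMP8 was at 0 in every library. S100A8, S100A9 and S100A12 made up most of these sums. S100A12 alone was at 7643 of 12727 CPM in S6_2 and at 381 of 436 CPM in S9_1. Of 10 macrophage markers 6 were called lower, with sums of 288.8 to 493 CPM in S9, 390.5 to 541.8 CPM in S7 and 683.3 to 1868 CPM in S6. Pearson's r with the neutrophil sum over the 9 libraries was -0.921 for PDGFA, -0.925 for VEGFD and -0.665 for PDGFC. The summed level of blood endothelial markers overlapped between groups, at 1347 to 2973 CPM in S9, 1157 to 2750 CPM in S7 and 1438 to 1736 CPM in S6, and VWF alone made up 905 of 1452 CPM in S6_2. Gene by gene, all 13 had a positive log2 fold change in S9 against S6 (median 0.79), 10 were higher at an unadjusted p below 0.05 and 3 were called higher. Fibroblast markers summed to 41040 to 54670 CPM in S9, 50990 to 108500 CPM in S7 and 28910 to 47140 CPM in S6, so S7 lay wholly above S6 and S9 overlapped with both, and 2 of 12 were called higher in S9 than in S6. Lymphatic markers summed to 326 to 525.9 CPM in S9, 358.3 to 502.4 CPM in S7 and 244.9 to 423.6 CPM in S6, with 3 of 7 called higher, FLT4 among them. While 6 of 7 had a positive log2 fold change, PDPN went the other way. It was at 32.9, 27.9 and 46.9 CPM in S9, and at 61.4, 68.4 and 51.9 CPM in S6. Platelet markers, of interest because platelets store PDGF, summed to 28.03 to 38.11 CPM in S9, 33.61 to 46.87 CPM in S7 and 22.3 to 38.09 CPM in S6, with 1 of 4 tested called, lower. Schwann cell markers had 3 of 7 called higher in S9 than in S6, adipocyte markers 1 of 4 tested, skeletal muscle markers 1 of 3 tested and epithelial markers 1 of 11. Over all genes 6.02% were called higher, and 15.4% were higher at an unadjusted p below 0.05. The epithelial list leaned lower, with 4 of 11 positive and a median log2 fold change of -0.24. The adipocyte list had 2 of 4 positive and a median of -0.19. In S7 against S6 edgeR called 0 markers of any list, while at an unadjusted p below 0.05 it had 12 of 12 smooth muscle, 7 of 12 fibroblast, 6 of 9 mural and 4 of 13 blood endothelial markers higher, and 9 of 10 macrophage and 6 of 7 neutrophil markers lower. The median log2 fold change there was 1.32 for smooth muscle, 1.01 for fibroblast and 0.91 for mural markers. Of all genes, 17.1% had an unadjusted p below 0.05 in S7 against S6, 8.68% as higher. In S9 against S7 edgeR also called 0, with 5 of 7 neutrophil markers lower at an unadjusted p below 0.05, beside 9.21% of all genes in either direction. The part of any of these cell types in the member differences was not tested.

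**Figure D4:**
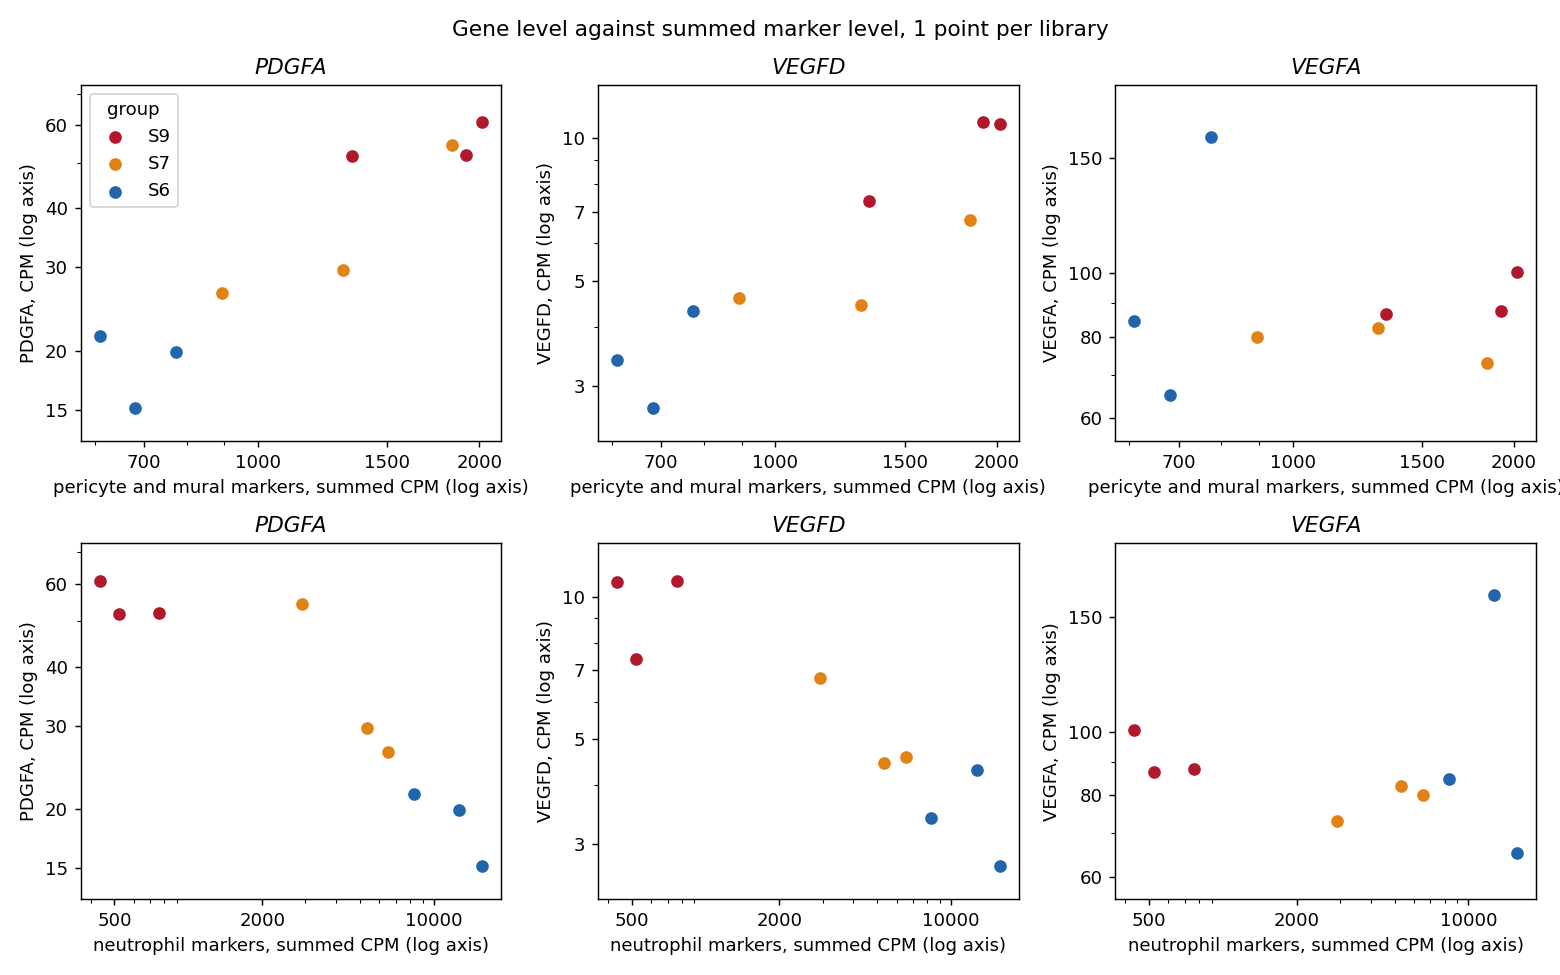
CPM of PDGFA, VEGFD and VEGFA on a log axis against the summed CPM of 9 pericyte and mural markers (upper row) or 8 neutrophil markers (lower row), also on a log axis, 1 point per library. PDGFA and VEGFD lie high where the mural sum is high and low where the neutrophil sum is high. VEGFA follows neither sum closely, and 1 library, S6_2, stands apart at 162 CPM. By rank, Spearman's rho of VEGFA was 0.317 with the mural sum and -0.367 with the neutrophil sum.

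Among pairs of the 10 genes, the 36 that do not hold VEGFA all had a positive Pearson's r over the 9 libraries, from 0.02 for PDGFD with PDGFRA to 0.94 for VEGFD with PDGFA. The 9 pairs with VEGFA ran from -0.35 to 0.25. These include S6_2, where VEGFA stood apart at 162 CPM, and were not computed without it. Of 10938 other genes with a symbol and at least 5 CPM, those most like each member over the 9 libraries were TXNIP and CDK12 for VEGFA (r 0.980 and 0.925), ZFYVE21 for VEGFB (0.977), with FEZ1 next, SETD9 and IQSEC1 for VEGFC (0.976 and 0.970), and PCNX1 and ZCCHC14 for VEGFD (0.995 and 0.989). For the PDGF ligands they were TNRC18 for PDGFA (0.997), DNAJC15 and PLXDC2 for PDGFB (0.985 and 0.967), C16H1orf198 and ANTXR1 for PDGFC (0.963 and 0.962), and CDKL1 and RELN for PDGFD (0.949 and 0.936). For the receptors they were ARHGEF7 and TERF1 for PDGFRA (0.979 and 0.952), and CD109 and NECTIN3 for PDGFRB (0.958 and 0.949). The highest of so many r values over 9 libraries is high by selection, and these are descriptions.

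The receptors that read the VEGF ligands had positive log2 fold changes in both comparisons with S6. FLT4, the receptor of VEGFC and VEGFD, was the only one called of 6 receptor, co-receptor and PGF genes. It was at 72.1, 69.3 and 77.7 CPM in S9, at 76.1, 40.7 and 49.98 CPM in S7, and at 35.7, 34.1 and 31.0 CPM in S6. FLT4 thus rose in S9 against S6, by 1.12 on the log2 scale (SE 0.21, edgeR adjusted p = 0.0227), and S7 lay between the groups apart from S7_2. In S9 against S6 the placental growth factor PGF had a log2 fold change of 1.30 (edgeR adjusted p = 0.0532), FLT1 0.98 (0.106), the co-receptors NRP1 0.71 (0.107) and NRP2 0.75 (0.170), and KDR, the main signalling receptor for VEGFA, 0.49 (0.147). In S7 against S6 KDR was at 0.90 (edgeR adjusted p = 0.109), FLT4 at 0.73 (0.148), PGF at 1.08 (0.191), NRP1 at 0.68 (0.242), NRP2 at 0.37 (0.639) and FLT1 at 0.32 (0.718). Between S9 and S7 the log2 fold changes of these genes ran from -0.41 for KDR to 0.66 for FLT1, with edgeR adjusted p from 0.565 to 0.972.

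Among the proteases that activate latent PDGFC and PDGFD, PLAT and PLAU fell in S9 against S6. PLAT, tissue plasminogen activator, which cleaves PDGFC, was at 16.0, 36.5 and 24.8 CPM in S9, at 55.4, 150.3 and 67.8 CPM in S7, and at 299, 66.5 and 318 CPM in S6. All S9 libraries lay below all S6 libraries, S6_3 stood well below the other 2 S6 libraries, and S7 overlapped with S6. The log2 fold change of PLAT was -3.14 (SE 0.64, edgeR adjusted p = 0.0246) and that of PLAU, urokinase, which cleaves PDGFD, was -1.09 (SE 0.30, edgeR adjusted p = 0.0471). ST14, the protease matriptase, was at -1.40 and did not pass (edgeR adjusted p = 0.0767). These 2 were the calls among 9 tested of 11 genes that process the ligands (median -0.30, all genes -0.01), and PLG and CTSD were not tested.

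Over the 6 lists of other pathway genes, 7 of 63 tested were called higher and 5 lower in S9 against S6, a share of 19.0% beside 12.4% of all genes. Of 6 angiopoietin and TIE genes only PTPRB, an endothelial phosphatase that restrains TEK, was called, at a log2 fold change of 0.99 (edgeR adjusted p = 0.0261), while ANGPT2 at 0.73 (0.0502) and ANGPT1 at 1.61 (0.0592) did not pass. Of 15 hypoxia genes only BNIP3, a mitophagy receptor, was called, lower at -0.77 (edgeR adjusted p = 0.0240, list median -0.12). In S7 against S6 edgeR called 0 of the 63, with 18 at an unadjusted p below 0.05, beside 17.1% of all genes. DESeq2 called 9 of the 63 in this comparison, beside 1417 of all 17102 genes. In S9 against S7 edgeR also called 0, with 11 at an unadjusted p below 0.05, beside 9.21% of all genes. DESeq2 called 0 of the 63 between S9 and S7, beside 123 of all genes.

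The calls of FLT4, PLAT and BNIP3 were lost without S6_4, S9_1 or S9_2, and that of PTPRB without the same libraries and under the gene length correction (0.62, edgeR adjusted p = 0.0754). PLAU was lost without any of 7 libraries, S6_2, S6_3, S6_4, S7_2, S9_1, S9_2 or S9_4, and under the gene length correction (-0.98, edgeR adjusted p = 0.0688). Without these libraries and in the other alternatives the log2 fold change ran from 0.96 to 1.17 for FLT4, from -3.57 to -2.80 for PLAT, from -0.90 to -0.51 for BNIP3, from 0.62 to 1.13 for PTPRB and from -1.17 to -0.93 for PLAU, over the 16 alternatives of each. In the mitochondria-rich 6, and with the title number as a replicate block, 0 of these 5 were called.

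**Figure D5:**
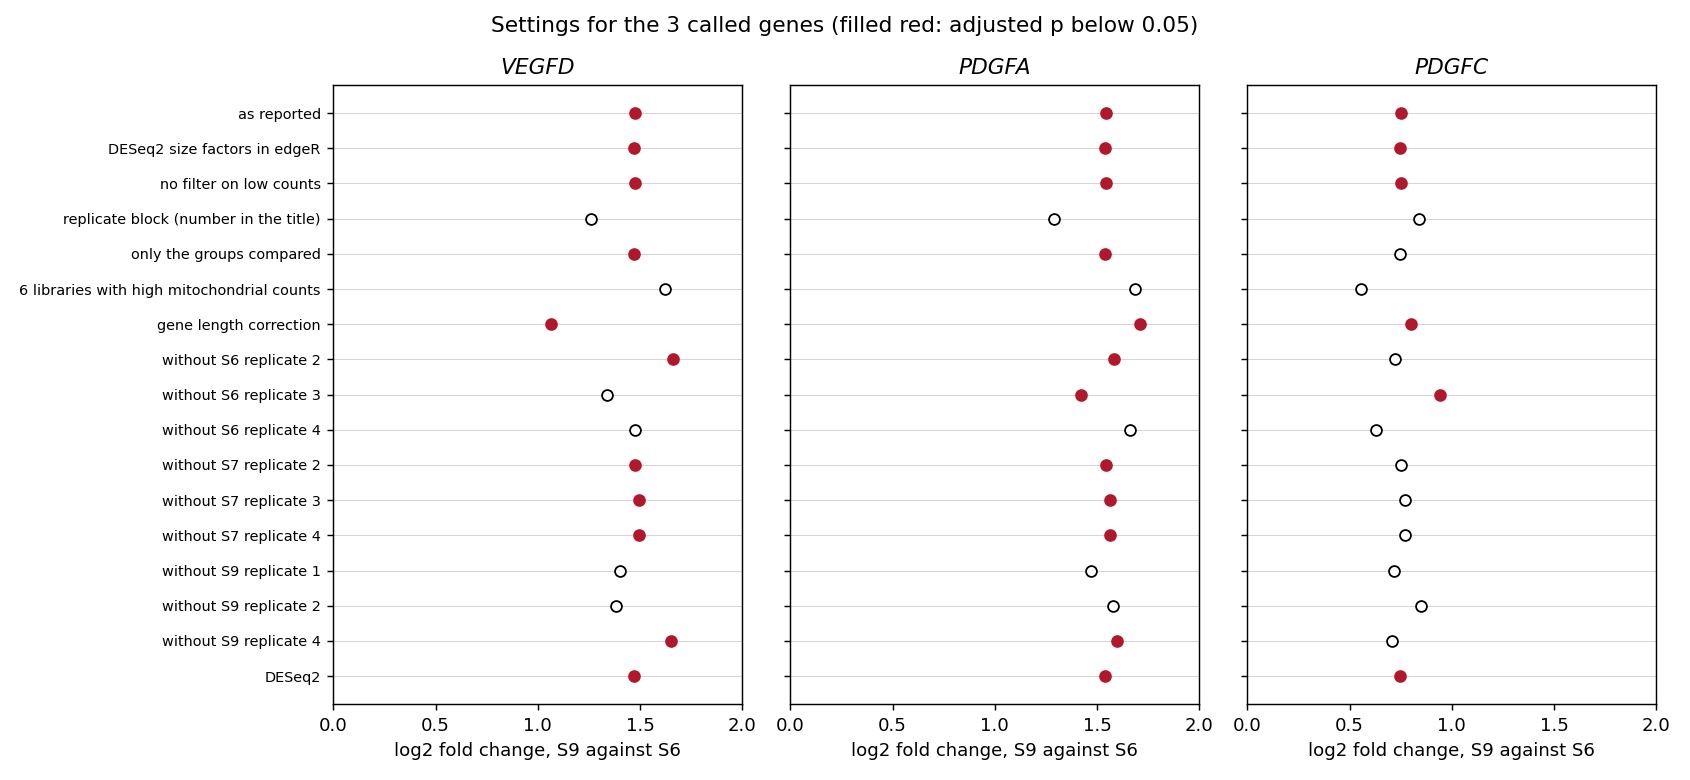
Log2 fold change of S9 against S6 for VEGFD, PDGFA and PDGFC as reported and under each of 16 alternatives, filled red where the adjusted p was below 0.05. The values stay above 0 throughout, and the call was kept in 10 alternatives for VEGFD, 11 for PDGFA and 5 for PDGFC.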

How the data were processed

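Gene counts of 9 libraries were deposited by the authors as raw reads per gene, and FPKM values for the same libraries were deposited by the authors beside them. Per the submitters' processing notes fastp, HISAT2 and HTSeq were used. The sources used here give no version, genome build or strand setting, so reads of overlapping genes cannot be told apart. Columns were mapped to samples by title. Genes were kept by filterByExpr (minimum count 10, minimum total 15), scaled by TMM, and fitted with edgeR 4.0.16 (R 4.3.3), robust quasi-likelihood, with all 9 libraries and 6 residual degrees of freedom. P-values were adjusted by Benjamini-Hochberg over 17102 genes with a threshold of 0.05. Intervals are 95%. DESeq2 1.42.0 was an alternative. Of 12867 rows with a LOC number, 515 took a symbol from RefSeq (mOryCun1.1). The members, the 6 pathway and 12 marker lists and the alternatives were chosen with earlier results of these data known. Named are all members, all VEGF receptors, up to 3 genes per pathway list and the 2 genes most like each member (log2 CPM, prior count 2, at least 5 CPM), of which 1 is not reported here. The hypoxia genes of S6_2 were named after their values were seen.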

Additional observations from a re-analysis of the deposited data

How the results depend on the processing

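With the number in the title as a replicate block, edgeR called 0 of the 10 genes in S9 against S6 (5 at an unadjusted p below 0.05) and 16 genes in all, against 3 and 2115 as reported, and it called 1 gene in S7 against S6 and 2 over the 3 groups. The labels do not say that the numbers pair libraries. Deviations of same-numbered libraries correlated at -0.0649 and 0.127 between S9 and S6, at 0.139, 0.132 and 0.0226 between S7 and S6, and at 0.0640 and 0.0201 between S9 and S7. Some libraries correlated better with another number than with their own. Examples are S7_4 with S6_2 (0.0552), S9_2 with S6_3 (0.0881), S9_4 with S7_3 (0.103) and S7_2 with S9_1 (0.0786). In the mitochondria-rich 6 libraries 0 of the 10 were called in S9 against S6 (3 unadjusted), and over all genes 7 in S9 against S6, 0 in S7 against S6 (2253 unadjusted), 1 in S9 against S7 and 0 over the 3 groups (3172 unadjusted). DESeq2 called 5 of the 10 in S9 against S6, 4 in S7 against S6 and 5 over the 3 groups, and 4112, 1417, 123 (S9 against S7) and 3295 of all genes. In S9 against S6 its further calls were VEGFB and VEGFC. A gene length correction called the same 5 in S9 against S6, no filter on low counts called 1 over the 3 groups, and fitting only the groups compared called 0 genes in S7 against S6 (2458 unadjusted). With the length correction the S9 against S6 log2 fold change was 0.76 for VEGFB, 1.07 for VEGFD and 0.24 for PDGFD, against 0.50, 1.47 and 0.56 as reported.

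Leaving out 1 library at a time gave 0 to 2 of the 10 in S9 against S6 (0 without S6_4, S9_1 or S9_2, with 4, 5 and 8 unadjusted) and 0 to 1 over the 3 groups. Over all genes it gave 0 (without S9_1, 3994 unadjusted) to 2076 in S9 against S6, 0 to 10 in S7 against S6, 0 to 1 in S9 against S7 and 0 to 641 over the 3 groups. The genes with S9 wholly apart from S7 numbered 2 to 4.

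Directions that turned were all of uncalled log2 fold changes. Leaving out 1 library gave VEGFA -0.41 to 0.29 in S9 against S6 and -0.65 to 0.066 in S7 against S6, and PDGFRA -0.058 to 0.17 in S7 against S6. In S9 against S7 it gave VEGFB -0.081 to 0.0995, VEGFC -0.017 to 0.18, PDGFB -0.22 to 0.19, PDGFC -0.049 to 0.17 and PDGFD -0.19 to 0.23. The block gave VEGFA -0.0019, VEGFB 0.028, PDGFB -0.30 and PDGFD -0.087 in S9 against S7. The mitochondria-rich 6 gave PDGFRA -0.11 in S7 against S6, and VEGFC -0.028 and PDGFD -0.23 in S9 against S7. The length correction gave PDGFRA -0.025 in S7 against S6, and VEGFB 0.13 and PDGFD -0.19 in S9 against S7. The causes were not tested. Over 16 alternatives for 10 genes, 133 values in S9 against S6 kept direction and side of the threshold, 22 lost a call, 4 gained one and 1 turned. In S7 against S6 149 kept both, 4 gained a call and 7 turned, and in S9 against S7 141 kept both and 19 turned.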

Other observations

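The lists of signalling and of endothelial response genes hold further calls for S9 against S6. Of 16 genes downstream of the receptors, PIK3R1, the regulatory subunit of PI3-kinase, rose to 361 ± 53.5 CPM in S9, against 157 ± 35.2 CPM in S6 (SD, n = 3 each, 2.30-fold, edgeR adjusted p = 0.0207). PLCG1, the phospholipase that VEGF and PDGF receptors bind, rose by 0.62 (edgeR adjusted p = 0.0235) and the phosphatase PTPN11 by 0.61 (edgeR adjusted p = 0.0393) on the log2 scale, while DUSP5, a feedback phosphatase of ERK, fell to 6.19 ± 1.148 CPM in S9, against 18.9 ± 2.06 CPM in S6 (log2 fold change -1.61, edgeR adjusted p = 0.0132). Of 11 tip and stalk cell genes, the Notch ligands DLL4 and JAG1 rose, at log2 fold changes of 0.98 and 1.04 (edgeR adjusted p = 0.0235 and 0.0252), and the chemokine receptor CXCR4 fell, at -2.26 (edgeR adjusted p = 0.0261). CXCR4 is also a gene of leukocytes, and most neutrophil and macrophage markers were lower in S9. The part of these cells in the fall of CXCR4 was not tested. Each of these 7 calls was lost without S9_1, without S9_2, in the mitochondria-rich 6 libraries and with the replicate block, and all but that of DUSP5 were lost without S6_4. Those of JAG1, CXCR4 and PTPN11 were also lost without S6_3, and that of PTPN11 was kept in 6 of 16 alternatives. The log2 fold changes kept their direction in all 16.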
